A study of Homo sapiens with 15 samples.

Results

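The effect of adding BRM depletion to BRG1 depletion was examined by RNA sequencing in HepG2, an established cell line from a human liver tumour. The comparison set the 4 libraries from cells transduced with hairpins against both ATPases (the double group, labelled shBRG1 + shBRM) against the 4 libraries from cells transduced with the hairpin against BRG1 (the BRG1 group, labelled shBrg1), 8 of the 15 libraries in the series. Both groups therefore carry BRG1 depletion, and the BRM hairpin is what the labels add in the double group. The other 7 libraries, 3 with the BRM hairpin (the BRM group) and 4 with a non-silencing hairpin (the NS group), were used to ask whether BRM depletion acted alike where BRG1 was present. Every group was infected with lentivirus with 8 µg/mL polybrene, kept under puromycin selection and collected on day 5 after transduction. How many hairpins were used per gene, and whether the cells with a single hairpin also received a control hairpin, is not given in the sources used here. Separate cultures are not stated for the replicates, and p-values therefore measure only the spread between these samples, possibly a technical one.

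BRG1 (gene SMARCA4) and BRM (gene SMARCA2) are the motors of the SWI/SNF (BAF) remodelling complexes. These use ATP to move or evict nucleosomes. Each complex holds either BRG1 or BRM, and the other subunits are largely shared. Loss of BRG1 is known to leave some cancer cells dependent on BRM, and cells that lack both have no catalytic subunit for these complexes. In hepatocytes the complexes are known for their part in opening liver gene promoters and enhancers.

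The double libraries held 13885573 to 27187991 estimated counts, the BRG1 libraries 17291281 to 23734366, the BRM libraries 12550787 to 26998203 and the NS libraries 11500149 to 22467399. Levels are given as CPM, the count relative to a library total that was scaled between libraries by the trimmed mean of M values (TMM). They are not divided by transcript length, so they compare libraries and not genes. In the double and BRG1 groups libraries 1 and 2 differed from libraries 3 and 4. Transcripts encoded by the mitochondrial genome took 6.65 to 8.33% of counts in double libraries 1 and 2 and 1.79 to 3.46% in double libraries 3 and 4, and 7.73 to 7.90% and 1.78 to 3.55% in the same BRG1 libraries. Differences between double and BRG1 libraries are therefore given over all 8 libraries and then within the sets, libraries 1 and 2 first and libraries 3 and 4 after them. What separates the sets is not given in the labels. The sets are not equally uniform. The chi-square per degree of freedom between the counts of 2 libraries, which grows with depth, was 9.41 for double libraries 1 and 2. It was 12.5 for BRG1 libraries 1 and 2, 23.1 for BRG1 libraries 3 and 4 and 66.3 for double libraries 3 and 4. Between sets it was 98.9 to 225.8. Values within libraries 3 and 4 thus average over 2 double libraries that were less alike. Of the liver markers checked, ALB, AFP, APOA1, APOB, SERPINA1, HNF4A, FOXA2, TF and GPC3 were present in all libraries, from 1384 to 2568 CPM in the double group and 684 to 3379 CPM in the BRG1 group for ALB to 20.2 to 38.4 CPM and 25.3 to 49 CPM for FOXA2. TTR, the liver carrier of thyroxine and retinol-binding protein, was at 10.2 to 18.3 CPM in the double group and 35.3 to 48.9 CPM in the BRG1 group.

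The targeted transcripts were examined first. SMARCA2 (chromosome 9, 1980290 to 2193624, plus strand, GRCh38 and GENCODE v29, as for all genes below) had 2.79, 2.23, 2.84 and 2.4 CPM in double libraries 1 to 4 and 28.1, 29.5, 21.6 and 23.9 CPM in BRG1 libraries 1 to 4. The groups did not overlap, and the log2 fold change, double minus BRG1, was −3.32 ± 0.26 (edgeR adjusted p = 1.01e-05, −3.51 and −3.1 within the sets). The BRM hairpin lowered SMARCA2 by a similar amount where BRG1 was present, with 6.85, 2.55 and 3.73 CPM in the BRM group against 41.2, 33.2, 41.1 and 41.4 CPM in the NS group, a log2 difference of −3.18 ± 0.28 (adjusted p = 3.44e-05). The difference between the effects was −0.14 ± 0.35 (adjusted p = 0.956) and did not pass. SMARCA4 (chromosome 19, 10960825 to 11079426, plus strand) had 43.3, 52, 39.1 and 50.5 CPM in the double libraries and 29.3, 29, 28.6 and 24.4 CPM in the BRG1 libraries, against 281 to 444 CPM in the BRM group and 297 to 312 CPM in the NS group. SMARCA4 was thus low in both BRG1-depleted groups but higher in every double library than in any BRG1 library, by 0.73 ± 0.16 (edgeR adjusted p = 0.00858, 0.71 and 0.75 within the sets). The residual SMARCA4 transcript differs between the groups together with SMARCA2, and the contribution of each to the differences below cannot be told apart.

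**Figure D1:**
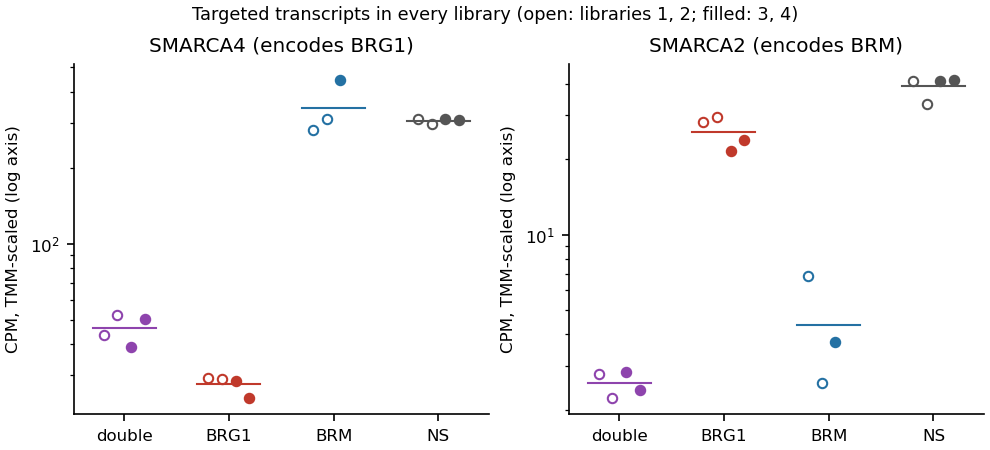
CPM (log axis) of SMARCA4, left, and SMARCA2, right, in every library of the double, BRG1, BRM and NS groups, with open points for libraries 1 and 2, filled points for libraries 3 and 4 and a line at the mean. SMARCA2 is at 2.23 to 2.84 CPM in the double libraries and 21.6 to 29.5 CPM in the BRG1 libraries, and SMARCA4 is higher in all double than in all BRG1 libraries.

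Of 14621 genes tested, 1582 differed between the double and BRG1 groups (10.8%, edgeR quasi-likelihood F test, Benjamini-Hochberg adjusted p under 0.05). Of these, 600 rose (4.1% of genes tested) and 982 fell (6.72%), and 922 changed at least 2-fold, 315 upward and 607 downward (6.31% in all). The median log2 fold change was 1.03 among genes called higher and −1.2 among genes called lower, against 0.01 over all genes. The double and BRG1 libraries did not overlap for 1503 of the called genes. Over all genes tested, 18.8% had double and BRG1 libraries that did not overlap. Within libraries 1 and 2 alone 4249 genes were called (29.1%), 1969 higher (13.5%) and 2280 lower (15.6%). Within libraries 3 and 4 alone 1958 were called (13.4%), 860 higher (5.88%) and 1098 lower (7.51%). Both sets called 1316 genes in the same direction, which is 31.0% of the calls in libraries 1 and 2 and 67.2% of those in libraries 3 and 4, and 34 genes in opposite directions. Of the genes called over all 8 libraries, 1581 of 1582 had the same sign in both sets. These genes were called from the same libraries in a fit without a set term, which favours genes whose sets agree. Across all genes tested the log2 fold changes within the sets had a Pearson correlation of 0.48. The change differed between the sets for 564 genes (3.86%), 154 of them among the 1582. The count of 1582 fell to 1038 without BRG1 library 1, 1014 without BRG1 library 2, 946 without double library 1 and 934 without double library 2, and was 3259 with the replicate number as a block and 3728 with a term for the sets.

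**Figure D2:**
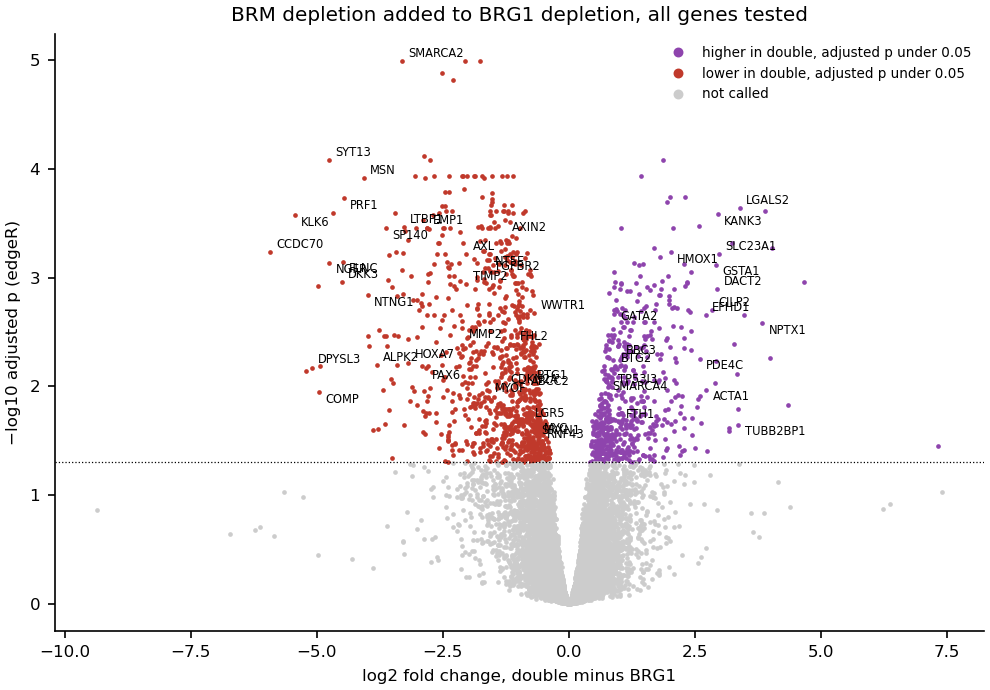
Log2 fold change, double minus BRG1 (x axis), against −log10 of the adjusted p (y axis) for the 14621 genes tested, with genes called higher in double in purple, genes called lower in red and the dotted line at an adjusted p of 0.05. More genes lie on the lower side, 982 against 600, and many of the leading genes by fold change or by list are labelled.

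The largest increases included genes of liver metabolism beside genes known mainly from other tissues. GSTA1, an alpha-class glutathione transferase of the liver whose reads can be shared with its paralog GSTA2, had 15.7, 16.3, 16.6 and 21.9 CPM in the double libraries and 1.07, 1.24, 4.13 and 2.85 CPM in the BRG1 libraries. It rose by 2.92 ± 0.43 (edgeR adjusted p = 0.000759, 3.8 and 2.45 within the sets), and BRG1 libraries 3 and 4 were higher than BRG1 libraries 1 and 2. NPTX1, a secreted pentraxin of synapses, had 9.51, 9.31, 10.2 and 4.12 CPM in the double libraries and 1.07, 0.569, 0.392 and 0.246 CPM in the BRG1 libraries, a log2 fold change of 3.84 ± 0.69 (edgeR adjusted p = 0.00263, 3.49 and 4.46 within the sets). LGALS2, which encodes the lectin galectin-2, rose by 3.39 ± 0.41 (edgeR adjusted p = 0.00023, 4.52 and 2.37 within the sets), and SLC23A1, a sodium-dependent vitamin C transporter, by 2.98 ± 0.43 (edgeR adjusted p = 0.000604, 4.07 and 1.96 within the sets). For both of these the change was smaller within libraries 3 and 4 than within libraries 1 and 2 (edgeR adjusted p for the difference between sets = 0.0466 and 0.042). KANK3, an adaptor of the cortical cytoskeleton, had 3.66, 4.18, 4.81 and 6.64 CPM in the double libraries and 0.749, 0.465, 0.653 and 0.59 CPM in the BRG1 libraries. It rose by 2.95 ± 0.37 (edgeR adjusted p = 0.00026, 2.65 and 3.18 within the sets). The other leading increases included DACT2, a Dishevelled-binding protein (log2 fold change 2.94), CILP2, a cartilage matrix protein (2.84), ACTA1, skeletal muscle actin (2.72), EFHD1, a mitochondrial calcium-binding protein (2.71), and PDE4C, a cyclic AMP phosphodiesterase (2.6). TUBB2BP1, a tubulin pseudogene at 3.36, is uncertain because its reads can be shared with tubulin genes.

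The 12 largest decreases left at most 2.07 CPM in any double library, apart from NGFR at up to 6.95 CPM. KLK6, a secreted serine protease of the kallikrein family (chromosome 19, 50958631 to 50969673, minus strand), had 0, 0.0674, 0.105 and 0.401 CPM in the double libraries and 5.4, 4.76, 8.44 and 6.93 CPM in the BRG1 libraries. The highest double library was below the lowest BRG1 library, and KLK6 fell by 5.43 ± 0.68 (edgeR adjusted p = 0.000267, −7.11 and −5.04 within the sets). NGFR, the p75 neurotrophin receptor, had 0.711, 0.472, 6.95 and 4.58 CPM in the double libraries and 79.6, 89.1, 93.5 and 89.6 CPM in the BRG1 libraries. Its level in double libraries 3 and 4 was higher than in double libraries 1 and 2, and the log2 fold change was −4.75 ± 0.70 (edgeR adjusted p = 0.000726, −7.12 and −3.97 within the sets). MSN (chromosome X, 65588377 to 65741931, plus strand), which encodes moesin, a linker between the plasma membrane and actin, had 0.437, 0.405, 0.843 and 0.515 CPM in the double libraries and 11.8, 12, 6.92 and 7.52 CPM in the BRG1 libraries. It fell by 4.07 ± 0.44 (edgeR adjusted p = 0.000121, −4.8 and −3.36 within the sets). COMP, a cartilage matrix protein, had 0.984, 0.877, 1.72 and 1.26 CPM in the double libraries and 77.3, 63, 7.48 and 5.11 CPM in the BRG1 libraries. BRG1 libraries 1 and 2 carried most of its signal, and its log2 fold change was −4.95 ± 1.12 (edgeR adjusted p = 0.0113, −6.22 and −2.05 within the sets), a difference between sets that passed (adjusted p = 0.00202). PRF1, the pore-forming protein of cytotoxic lymphocytes, had 0.219, 0.202, 1.19 and 1.37 CPM in the double libraries and 14.8, 17.3, 17.7 and 18.7 CPM in the BRG1 libraries. It fell by 4.46 ± 0.52 (edgeR adjusted p = 0.000185, −6.2 and −3.83 within the sets). SYT13, a synaptotagmin, fell by 4.77 ± 0.47 (edgeR adjusted p = 8.31e-05, −5.42 and −3.73 within the sets) and DKK3, a secreted member of the Dickkopf family, by 4.51 ± 0.71 (edgeR adjusted p = 0.0011, −6.5 and −2.79 within the sets). CCDC70, a coiled-coil protein, had the largest decrease of the leading genes at −5.92 ± 0.84 (edgeR adjusted p = 0.00058, −5.03 and −6.44 within the sets). The remaining leading decreases were DPYSL3, a cytoskeletal protein of neurons (−5.1), NTNG1, which encodes netrin-G1 (−3.98), ALPK2, an alpha kinase (−3.81), and SP140, a nuclear body protein of leukocytes (−3.64). ALPK2 was not called within libraries 3 and 4 alone.

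**Figure D3:**
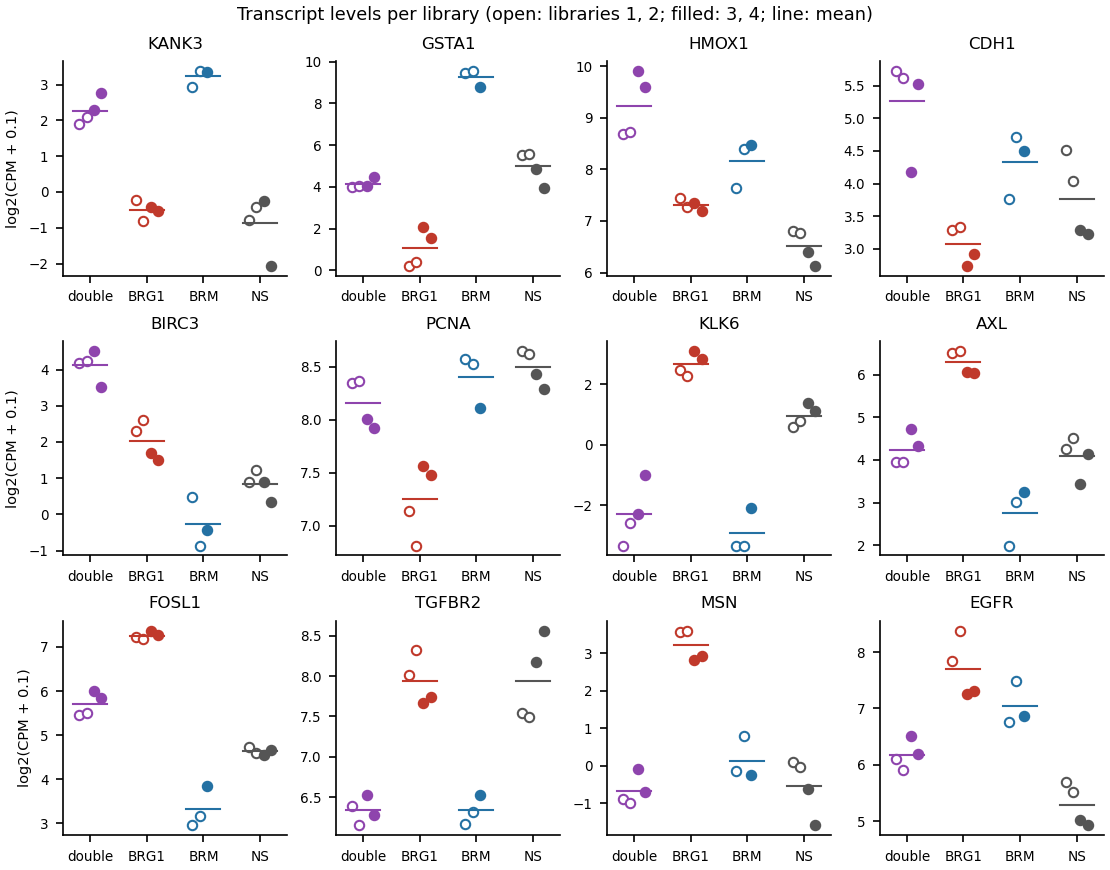
Levels of 12 genes, as log2(CPM + 0.1), in every library of the double, BRG1, BRM and NS groups, with open points for libraries 1 and 2, filled points for libraries 3 and 4 and a line at the mean of the log2 values. In each panel the double and BRG1 libraries do not overlap. KANK3, GSTA1, HMOX1, CDH1, BIRC3 and PCNA are higher in the double group and KLK6, AXL, FOSL1, TGFBR2, MSN and EGFR are lower.

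The effect of BRM depletion in BRG1-depleted cells was next set beside its effect in cells with BRG1, where the BRM and NS groups share no library with the double and BRG1 groups. In cells with BRG1, 2035 genes were called (13.9%), 1120 higher (7.66%) and 915 lower (6.26%), a count that fell to 959 without BRM library 2. Both comparisons called 730 genes, which is 46.1% of the genes called in BRG1-depleted cells and 35.9% of those called in cells with BRG1. Among them 285 rose in both, 426 fell in both, 16 fell in BRG1-depleted cells and rose in cells with BRG1, and 3 did the opposite. The sign was the same for 1413 of the 1582 genes called in BRG1-depleted cells (89.3%), against 68.3% of all genes tested. Across all genes tested the log2 fold changes had a Pearson correlation of 0.502 and a Spearman correlation of 0.506, a description over genes, which are not independent replicates. GBA3, a cytosolic beta-glucosidase of the liver, rose by 4.03 ± 0.56 (edgeR adjusted p = 0.000529) in BRG1-depleted cells and by 6.6 ± 0.66 (adjusted p = 5.07e-05) in cells with BRG1. EFHD1, KANK3 and GSTA1 also rose in both, with log2 fold changes of 4.47, 4.28 and 4.2 in cells with BRG1. PRF1 fell in both, with 0.403, 0.25 and 0.922 CPM in the BRM group against 6.51, 6.49, 9.5 and 9.06 CPM in the NS group, and so did COMP and MYBPH, a myosin-binding protein, at log2 fold changes of −4.03 and −3.43 in cells with BRG1. KLK6 had 3 counts in all BRM libraries and 120 in all NS libraries, a ratio of NS to BRM of 33.1 (11 to 162.6, exact 95% interval, counting error only).

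The difference between the 2 effects passed for 73 genes (0.499%), 15 upward (0.103%) and 58 downward (0.397%), where downward means a lower value in BRG1-depleted cells. With upper quartile scaling the split was 24 upward and 50 downward. The fit over all libraries has no term for the sets. With such a term 1061 genes passed, with the replicate number as a block 633, and by DESeq2 453. The count was 166 without BRM library 1 and 38 without BRM library 2, 40 to 44 without BRG1 library 1, 2 or 3, 43 and 41 without double library 1 or 2, and 43 and 48 without NS library 3 or 4. Of the 73, 22 were among the genes called in both comparisons, 19 were called in BRG1-depleted cells alone, 32 in cells with BRG1 alone and 0 in neither. EGFR (chromosome 7, 55019021 to 55211628, plus strand), the receptor of epidermal growth factor, had 68.2, 60.0, 90.9 and 72.6 CPM in the double libraries and 228, 333, 152 and 158 CPM in the BRG1 libraries. It fell by 1.58 ± 0.27 (edgeR adjusted p = 0.00211, −2.13 and −0.92 within the sets). In cells with BRG1 it moved the other way, with 109, 178 and 117 CPM in the BRM group against 51.5, 45.6, 32.5 and 30.3 CPM in the NS group, a log2 fold change of 1.75 ± 0.29 (adjusted p = 0.00129). The difference between the effects on EGFR was −3.33 ± 0.40 (adjusted p = 0.00175). MSN had 0.806, 1.65 and 0.738 CPM in the BRM group and 0.971, 0.881, 0.553 and 0.232 CPM in the NS group, so that the low level of the double group was also that of cells with BRG1, and the difference between effects was −4.78 ± 0.63 (adjusted p = 0.00229). BRG1 depletion alone was the condition in which MSN was high, at 6.92 to 12 CPM. ACSL1, which activates long-chain fatty acids, had 43.8, 41.4, 55.2 and 40.5 CPM in the double libraries and 95.2, 107, 85.7 and 79.6 CPM in the BRG1 libraries, and 107, 141 and 111 CPM in the BRM group against 64.9, 55.5, 45.6 and 50.8 CPM in the NS group. It fell by 1.02 ± 0.16 (edgeR adjusted p = 0.00112) in BRG1-depleted cells and rose by 1.14 ± 0.17 (adjusted p = 0.000724) in cells with BRG1. MASP1, a protease of the lectin pathway of complement, and CD22, a lectin of B cells, showed the same opposite directions, at −1.26 and 1.31 for MASP1 and −1.64 and 1.13 for CD22.

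In the upward direction of that difference, SMPDL3B, a membrane-anchored phosphodiesterase, had 16, 14.8, 9.87 and 21.6 CPM in the double libraries and 3.16, 2.17, 4.87 and 5.5 CPM in the BRG1 libraries, and 0.725, 0.80 and 0.692 CPM in the BRM group against 3.25, 3.36, 1.84 and 1.63 CPM in the NS group. It rose by 1.99 ± 0.33 (edgeR adjusted p = 0.00174) in BRG1-depleted cells and fell by 1.76 ± 0.41 (adjusted p = 0.0107) in cells with BRG1, a difference of 3.75 ± 0.53 (adjusted p = 0.00444). CRABP2, a carrier of retinoic acid, rose by 2.08 ± 0.45 (edgeR adjusted p = 0.0088, 2.05 and 2.13 within the sets), whereas its value of −1.28 ± 0.49 (adjusted p = 0.101) in cells with BRG1 did not pass. PLA2G2A, a secreted phospholipase, fell in both, to 0.27 to 0.744 CPM in the double libraries against 2.79 to 4.57 CPM in the BRG1 libraries and to 0.322 to 0.55 CPM in the BRM group against 15.5 to 45.8 CPM in the NS group. Its double and BRM levels were thus near 0 and overlapped, whereas its BRG1 and NS levels did not overlap. Levels near 0 make the size of both falls uncertain. LPAR6, a lysophosphatidic acid receptor, did not differ detectably in BRG1-depleted cells (−0.04 ± 0.29, edgeR adjusted p = 0.973) and fell by 2.55 ± 0.36 (adjusted p = 0.000465) in cells with BRG1. Among the downward differences, CYP19A1, which encodes aromatase, had 6.07, 3.1, 2.95 and 3.6 CPM in the double libraries and 4.34, 4.03, 4.0 and 3.64 CPM in the BRG1 libraries, against 32.1, 62.5 and 38.4 CPM in the BRM group and 9.08, 5.85, 6.0 and 5.02 CPM in the NS group. The groups overlapped in BRG1-depleted cells (−0.03 ± 0.27, edgeR adjusted p = 0.978), and CYP19A1 rose by 2.77 ± 0.29 (adjusted p = 6.34e-05) in cells with BRG1. FETUB, which encodes the plasma protein fetuin-B, rose in cells with BRG1 by 2.94 ± 0.34 (adjusted p = 0.000111) and had a value of −0.34 in BRG1-depleted cells, a difference of −3.28 ± 0.49 (adjusted p = 0.00536). PTGES, a prostaglandin E synthase, rose by 3.68 ± 0.56 (adjusted p = 0.000809) in cells with BRG1 and had a value of −1.05 ± 0.44 (edgeR adjusted p = 0.157) in BRG1-depleted cells, a difference of −4.73 ± 0.72 (adjusted p = 0.00647).

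**Figure D4:**
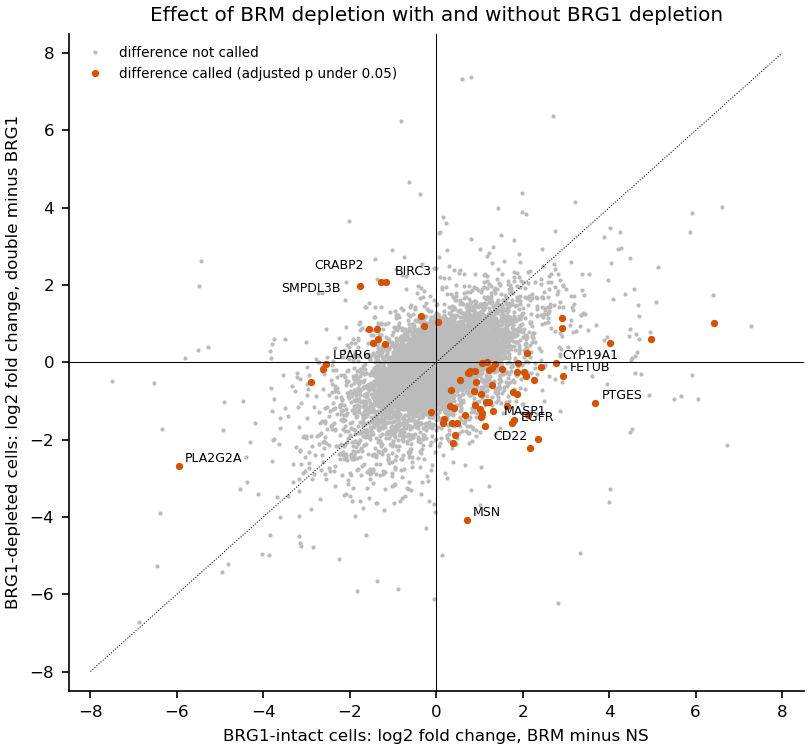
Log2 fold change on BRM depletion in BRG1-depleted cells (double minus BRG1, y axis) against that in cells with BRG1 (BRM minus NS, x axis) for each gene tested, with genes whose difference passed in orange and a dotted line where both are equal. EGFR, MASP1 and CD22 lie in the lower right quadrant, SMPDL3B in the upper left, and MSN far below the line with little change on the x axis.

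More growth factor ligands and receptors fell than rose, mainly within libraries 1 and 2. Of 29 such genes tested, of 36 listed, 8 fell (27.6%, against 6.72% of all genes) and 3 rose (10.3%, against 4.1%). Their median log2 fold change was −0.37 (−0.57 and 0.00 within the sets). Within libraries 1 and 2, 16 fell and 5 rose (15.6% and 13.5% of all genes). Within libraries 3 and 4, 5 fell and 4 rose (7.51% and 5.88% of all genes). AREG, which encodes amphiregulin, a ligand of EGFR, had 14.3, 14.1, 15.4 and 9.15 CPM in the double libraries and 75.9, 89.2, 52.3 and 45.4 CPM in the BRG1 libraries. The groups did not overlap and AREG fell by 2.31 ± 0.28 (edgeR adjusted p = 0.000244, −2.54 and −1.98 within the sets). The EGFR ligands HBEGF, EREG and TGFA were called lower too, at log2 fold changes of −1.34, −1.6 and −0.60, as were the ErbB ligand NRG1 (−2.49) and IGFBP2, a binding protein of insulin-like growth factors (−2.57). AXL, a receptor tyrosine kinase that is also a target of the YAP coactivator, had 15.4, 15.4, 26.5 and 20.0 CPM in the double libraries and 90.7, 94.5, 67.2 and 65.3 CPM in the BRG1 libraries. It fell by 2.04 ± 0.29 (edgeR adjusted p = 0.000604, −2.59 and −1.51 within the sets). The 3 genes called higher were GAS6, the ligand of AXL (2.02), PDGFA (1.69) and INSR, the insulin receptor (0.79).

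Immediate early genes, which are induced within minutes of growth factor signals, did not move in 1 direction. Of 37 tested, 4 rose (10.8%, against 4.1% of all genes) and 5 fell (13.5%, against 6.72%). The medians had opposite signs in the sets, −0.44 and 0.35. FOSL1, which encodes the AP-1 subunit FRA1, had 43.9, 45.5, 63.8 and 57.6 CPM in the double libraries and 149, 145, 165 and 154 CPM in the BRG1 libraries. It fell by 1.54 ± 0.18 (edgeR adjusted p = 0.000215, −1.71 and −1.39 within the sets). SPRY2, IER5, PHLDA1 and MYC fell as well. The genes called higher were KLF2, a transcription factor (1.6), the AP-1 subunits JUND (1.14) and JUNB (1.1), and BTG2 (0.91), so that subunits of AP-1 moved in both directions.

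Among lists of matrix, YAP, cytoskeletal, integrin and Wnt genes, every gene called by edgeR over all 8 libraries fell, where 6.72% of all genes fell and 4.1% rose. Of those with a positive change, 2 matrix, 2 YAP, 2 cytoskeletal, 0 integrin or laminin and 1 Wnt gene had an unadjusted p under 0.05, and DESeq2 called 1, 1, 1, 0 and 0 higher in the same order. By limma voom 1 Wnt gene was called higher and none of the other lists. Of 38 transforming growth factor β (TGF-β) targets and matrix genes tested, of 46 listed, 10 fell (26.3%), with a median of −0.65 (−1.25 and −0.08 within the sets). TGFBR2, the type II TGF-β receptor, had 83.7, 71, 92.4 and 77.7 CPM in the double libraries and 258, 319, 203 and 215 CPM in the BRG1 libraries. It fell by 1.62 ± 0.24 (edgeR adjusted p = 0.000681, −1.9 and −1.3 within the sets). LTBP1, which holds latent TGF-β in the matrix, had 2.57, 1.28, 4.99 and 3.49 CPM in the double libraries and 32.4, 44.8, 21.6 and 22.5 CPM in the BRG1 libraries. It fell by 3.28 ± 0.42 (edgeR adjusted p = 0.000344, −4.3 and −2.36 within the sets). TIMP2, an inhibitor of metalloproteases, fell by 2.03 ± 0.32 (edgeR adjusted p = 0.00114, −2.71 and −1.4 within the sets) and the metalloprotease MMP2 by 2.12 ± 0.38 (edgeR adjusted p = 0.0029, −2.94 and −1.38 within the sets). COL1A1, the α1 chain of type I collagen, had 12.4, 10.2, 34 and 24.5 CPM in the double libraries and 188, 239, 41.4 and 35.3 CPM in the BRG1 libraries, and its log2 fold change of −2.63 ± 0.67 (edgeR adjusted p = 0.0214, −4.24 and −0.39 within the sets) was not called within libraries 3 and 4. The log2 fold change was higher within libraries 3 and 4 than within libraries 1 and 2 for 15 of the 38 genes by the test of the difference between sets. Within libraries 1 and 2, 25 of the 38 fell and 1 rose, and within libraries 3 and 4, 6 fell and 5 rose. Over all genes 15.6% fell and 13.5% rose in libraries 1 and 2, and 7.51% fell and 5.88% rose in libraries 3 and 4.

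Of 28 YAP target and pathway genes, 9 fell (32.1%, against 6.72% of all genes) and 0 rose (against 4.1%), with a median of −0.33 (−0.68 and −0.14 within the sets). Beside AXL these included MYOF, which encodes the membrane repair protein myoferlin (−1.6), NT5E, an ectonucleotidase (−1.58), and WWTR1, which encodes the YAP paralog TAZ (−0.69). Within libraries 1 and 2, 14 YAP genes fell and 1 rose, where 15.6% of all genes fell and 13.5% rose. Within libraries 3 and 4, 6 fell and 7 rose, where 7.51% of all genes fell and 5.88% rose. Of 39 actin cytoskeleton genes and targets of serum response factor (SRF), 9 fell (23.1%) and 0 rose, with a median of −0.36 (−0.62 and −0.11 within the sets). EMP1, an epithelial membrane protein, had 14.6, 10.8, 30.0 and 15.7 CPM in the double libraries and 180.5, 158, 79.3 and 84.1 CPM in the BRG1 libraries. All double libraries were lower than all BRG1 libraries and EMP1 fell by 2.81 ± 0.37 (edgeR adjusted p = 0.00035, −3.73 and −1.83 within the sets). FLNC, a filamin that crosslinks actin, fell by 4.48 ± 0.66 (edgeR adjusted p = 0.00071, −7.97 and −3.89 within the sets) and FHL2, a LIM-domain cofactor, by 1.1 ± 0.21 (edgeR adjusted p = 0.00412, −1.25 and −0.97 within the sets). Of 21 integrin and laminin genes, 3 fell (14.3%), with a median of −0.60 (−0.76 and −0.40 within the sets). They were LAMA3, a laminin chain (−2.28 ± 0.35, edgeR adjusted p = 0.00097), ITGA6 (−1.15 ± 0.21, edgeR adjusted p = 0.00334) and ITGB3 (−1.5 ± 0.42, edgeR adjusted p = 0.0328), integrin chains. Of 21 Wnt target genes, 4 fell (19%), with a median of −0.54 (−0.66 and −0.30 within the sets). AXIN2, a feedback inhibitor of Wnt signalling, had 56.7, 53.1, 75 and 62.6 CPM in the double libraries and 149.8, 190.3, 128 and 125 CPM in the BRG1 libraries. It fell by 1.26 ± 0.16 (edgeR adjusted p = 0.000295, −1.63 and −0.88 within the sets), and LGR5, RNF43 and MYC fell by 0.80, 0.57 and 0.63. Within libraries 3 and 4 alone, 6 Wnt targets fell and 2 rose.

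The promoters of some of these genes, from 250 bases before to 50 after the start site (RefSeq, GRCh38.p14), are shown for the AP-1 motif TGANTCA. Among genes of AP-1 subunits FOSL1 fell, whereas JUND and JUNB rose. A link of these changes to the genes shown was not tested. The promoters were chosen after the matches were seen. EMP1 (chr12:13196476-13196775, plus strand) holds 2 matches, starting 175 and 48 bases before the start site, LAMA3 (chr18:23872770-23873069, plus strand) holds 2, starting 125 and 69 bases before it, and TFPI2 (chr7:93890704-93891003, minus strand), an inhibitor of serine proteases in the coagulation list, holds 1, starting 87 bases before it. Capitals mark the matches, read on both strands.
EMP1: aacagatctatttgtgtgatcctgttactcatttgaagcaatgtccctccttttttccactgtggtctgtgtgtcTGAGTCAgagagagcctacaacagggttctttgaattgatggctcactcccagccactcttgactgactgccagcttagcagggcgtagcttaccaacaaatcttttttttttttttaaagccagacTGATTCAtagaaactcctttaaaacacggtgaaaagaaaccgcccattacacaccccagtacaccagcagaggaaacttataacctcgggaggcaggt
LAMA3: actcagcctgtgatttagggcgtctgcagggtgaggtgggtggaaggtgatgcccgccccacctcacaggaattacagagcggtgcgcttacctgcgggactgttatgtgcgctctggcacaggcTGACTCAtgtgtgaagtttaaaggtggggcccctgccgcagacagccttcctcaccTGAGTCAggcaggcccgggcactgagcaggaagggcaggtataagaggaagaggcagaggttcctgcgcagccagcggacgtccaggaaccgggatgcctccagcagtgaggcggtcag
TFPI2: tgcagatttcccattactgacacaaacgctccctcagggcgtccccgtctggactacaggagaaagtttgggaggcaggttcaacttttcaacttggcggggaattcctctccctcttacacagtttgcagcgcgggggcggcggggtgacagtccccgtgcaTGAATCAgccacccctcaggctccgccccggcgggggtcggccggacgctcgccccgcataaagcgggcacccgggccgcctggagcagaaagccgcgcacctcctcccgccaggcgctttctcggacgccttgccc
The motif occurs in 8.05% of the 22114 promoters of the table. TFPI2 had 1.75, 1.48, 3.09 and 1.77 CPM in the double libraries and 9.07, 10.5, 10.6 and 11 CPM in the BRG1 libraries. It fell by 2.33 ± 0.35 (edgeR adjusted p = 0.000743, −2.59 and −2.12 within the sets). A match is a description and does not show binding. Promoters matched 7472 of the genes tested (51.1%), and motif shares were not compared between called and other genes.

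More plasma protein genes rose within libraries 1 and 2 than within libraries 3 and 4. Of 35 plasma protein genes tested, of 36 listed, 5 rose (14.3%, against 4.1% of all genes) and 1 fell (2.86%), with a median log2 fold change of 0.29 (1.5 and −0.03 within the sets). Within libraries 1 and 2, 23 rose and 2 fell (13.5% and 15.6% of all genes), and within libraries 3 and 4, 2 rose and 5 fell (5.88% and 7.51% of all genes). The log2 fold change was lower in libraries 3 and 4 for 17 of the 35 genes by the test of the difference between sets. ALB had log2 fold changes of 1.68 and −0.71 within the sets and AFP of 1.31 and −0.58. ORM1, an acute phase protein whose reads can be shared with its paralog ORM2, had 388, 462, 158 and 321 CPM in the double libraries and 68.6, 51.4, 108 and 112 CPM in the BRG1 libraries. It rose by 1.97 ± 0.30 (edgeR adjusted p = 0.000961, 2.82 and 1.12 within the sets). SERPINA6, which carries cortisol in plasma, rose by 1.76 ± 0.39 (edgeR adjusted p = 0.00919, 2.79 and 1.12 within the sets). TTR fell in both sets, with 14.2, 15.8, 10.2 and 18.3 CPM in the double libraries and 43.1, 35.3, 46.3 and 48.9 CPM in the BRG1 libraries and a log2 fold change of −1.57 ± 0.20 (edgeR adjusted p = 0.000344, −1.39 and −1.76 within the sets).

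Coagulation and fibrinolysis genes rose and fell in equal number, 3 each of 25 tested (12% each). Over all genes tested 4.1% rose and 6.72% fell. The list median was 0.20 (1.16 and −0.33 within the sets). PROZ (1.75), F7 (2.1) and PROS1 (0.78), plasma proteins of coagulation, rose, and those that fell included TFPI2 and PLAT, the tissue plasminogen activator (−1.48). Of 23 complement genes 0 rose (2 by DESeq2, 5 at an unadjusted p under 0.05) and 2 fell, MASP1 and the membrane regulator CD59 (−0.62), with a median of 0.22 (0.67 and −0.19 within the sets). Among 25 apolipoprotein and lipoprotein genes 5 rose (20.0%) and 1 fell (4%), with a median of 0.60 (1.11 and 0.24 within the sets). APOE had 1887, 2066, 1862 and 2690.2 CPM in the double libraries and 611, 595, 1023 and 996 CPM in the BRG1 libraries. Every double library was above every BRG1 library and APOE rose by 1.4 ± 0.23 (edgeR adjusted p = 0.00142, 1.71 and 1.17 within the sets). ANGPTL4, a secreted inhibitor of lipoprotein lipase, had 60.0, 59.2, 58.1 and 83.6 CPM in the double libraries and 18.8, 15.1, 16.5 and 15.6 CPM in the BRG1 libraries. It rose by 1.98 ± 0.33 (edgeR adjusted p = 0.00146, 1.81 and 2.14 within the sets). CETP, the cholesteryl ester transfer protein, fell by 1.92 ± 0.46 (edgeR adjusted p = 0.015, −2.62 and −1.49 within the sets).

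The 26 genes of xenobiotic metabolism tested, of 40 listed, had a median of 0.14 (0.51 and −0.08 within the sets). Of them 5 rose (19.2%, against 4.1% of all genes) and 1 fell (3.85%, against 6.72%). Beside GSTA1 and GSTA2 these were CYP4F3, a cytochrome P450 (2.42 ± 0.44, edgeR adjusted p = 0.00307), SULT2A1, a sulfotransferase (1.87 ± 0.40, edgeR adjusted p = 0.00743), and ALDH1A1 (0.83), and UGT2B7, a glucuronosyltransferase, fell (−1.06). The 26 fatty acid oxidation genes had a median of 0.43 (0.51 and 0.21 within the sets). Of them 6 rose (23.1%, against 4.1% of all genes) and 0 fell (neither DESeq2 nor an unadjusted p under 0.05 gave any). CPT1A, which commits fatty acids to mitochondrial oxidation, had 51.8, 48.3, 74.3 and 80.1 CPM in the double libraries and 21.7, 25.3, 24 and 24.6 CPM in the BRG1 libraries. The groups did not overlap and CPT1A rose by 1.41 ± 0.22 (edgeR adjusted p = 0.000961, 1.09 and 1.67 within the sets). SLC25A20, the carnitine carrier, rose by 1.14 ± 0.25 (edgeR adjusted p = 0.00921, 1.01 and 1.28 within the sets), less than its rise of 2.9 ± 0.27 (adjusted p = 4.22e-05) in cells with BRG1, a difference of −1.76 ± 0.36 (adjusted p = 0.0485). Of 26 genes of fatty acid and triglyceride synthesis 2 rose, GPAM (0.96) and ELOVL7 (0.75), and 1 fell, ACSL1, with a median of 0.22 (0.38 and 0.01 within the sets).

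Cholesterol synthesis had the highest median of the lists at 0.74 (1.34 and 0.46 within the sets), yet 1 of its 24 genes was called over all 8 libraries. This was IDI1, an isomerase of the isoprenoid pathway, at 1.27 ± 0.29 (edgeR adjusted p = 0.0128, 2.01 and 0.62 within the sets). Within libraries 1 and 2, 21 of the 24 rose, against 13.5% of all genes. Within libraries 3 and 4, 6 rose and 1 fell, against 5.88% and 7.51% of all genes. The log2 fold change was lower in libraries 3 and 4 for 12 of the 24 by the test of the difference between sets. Of 30 genes of gluconeogenesis, the urea cycle and amino acid breakdown 3 rose (10.0%, against 4.1% of all genes) and 1 fell (3.33%, against 6.72%). Their median was 0.54 (1.27 and 0.19 within the sets). ASS1, an enzyme of the urea cycle, had 70.0, 80.7, 64.4 and 125 CPM in the double libraries and 23, 20.5, 34.2 and 38.6 CPM in the BRG1 libraries. It rose by 1.55 ± 0.25 (edgeR adjusted p = 0.00122, 1.79 and 1.38 within the sets). NAGS, which makes the activator of the first step of that cycle, fell by 1.41 ± 0.31 (edgeR adjusted p = 0.00921, −1.62 and −1.29 within the sets). BHMT, which remethylates homocysteine, also rose (1.73). Of 19 bile acid genes 1 rose, KLB, the co-receptor of FGF19 (1.22), and 2 fell, the export pump ABCC2 (−0.88) and the uptake carrier SLCO1B3, with a median of −0.22 (0.13 and −0.15 within the sets). SLCO1B3 had 1 count in all double libraries and 52 in all BRG1 libraries, a ratio of BRG1 to double of 46.7 (8.02 to 1879.9, exact 95% interval, counting error only). Of 30 hepatocyte transcription factors 1 rose, FOXA1 (0.74 ± 0.19, edgeR adjusted p = 0.0199, 1.15 and 0.40 within the sets), and 2 fell, ONECUT2 and PROX1 (−0.55), shares near those of all genes. ONECUT2 had 13.5, 12.9, 10.7 and 12.9 CPM in the double libraries and 35.8, 41.5, 32.5 and 33.6 CPM in the BRG1 libraries. It fell by 1.52 ± 0.18 (edgeR adjusted p = 0.00019, −1.55 and −1.49 within the sets). The master regulator HNF4A, at 0.90 (1.28 and 0.65 within the sets), did not pass over all 8 libraries. Its levels were 229 to 428 CPM in the double libraries and 100 to 221 CPM in the BRG1 libraries. These did not overlap, which held for 18.8% of all genes tested.

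More cell cycle genes rose than fell, again mainly within libraries 1 and 2. Of 44 G1/S and replication genes 6 rose (13.6%, against 4.1% of all genes) and 1 fell (2.27%, against 6.72%). Their median was 0.45 (1.03 and 0.09 within the sets). Of 40 G2/M genes 6 rose (15%) and 0 fell (also 0 by DESeq2 and at an unadjusted p under 0.05). The G2/M median was 0.56 (1.24 and 0.01 within the sets). PCNA, the sliding clamp of DNA replication, had 325, 329, 257 and 242 CPM in the double libraries and 141, 112, 189 and 178 CPM in the BRG1 libraries. It rose by 0.89 ± 0.19 (edgeR adjusted p = 0.00747, 1.37 and 0.44 within the sets). CCNA2, which encodes cyclin A2, had 119, 120.0, 69.7 and 92.8 CPM in the double libraries and 34.5, 27, 52.4 and 64.5 CPM in the BRG1 libraries. It rose by 1.17 ± 0.25 (edgeR adjusted p = 0.00883, 1.95 and 0.47 within the sets). Both were above all BRG1 libraries in every double library, but neither was called within libraries 3 and 4. Within libraries 1 and 2, 33 of the 40 G2/M genes and 35 of the 44 G1/S genes rose, against 13.5% of all genes. In the same libraries 4 G1/S genes fell, against 15.6% of all genes. Within libraries 3 and 4, 0 G2/M genes and 2 G1/S genes rose by edgeR, against 5.88% of all genes, and 2 and 6 had a positive change at an unadjusted p under 0.05. The log2 fold change was lower in libraries 3 and 4 for 18 G2/M and 17 G1/S genes by the test of the difference between sets, and higher for 3 G1/S genes. CCND2, which encodes cyclin D2, was the G1/S gene that fell, by 1.45 ± 0.40 (edgeR adjusted p = 0.0305, −2.17 and −0.60 within the sets). In cells with BRG1 the medians on BRM depletion were −0.12 for G1/S and −0.29 for G2/M genes, with 0 genes rising in either list by edgeR or DESeq2 and 2 and 1 at an unadjusted p under 0.05. The difference between effects was 0.98 ± 0.28 (adjusted p = 0.149) for PCNA and 1.29 ± 0.37 (adjusted p = 0.151) for CCNA2, and neither passed. Replication-dependent histone genes had a median of 0.37 (0.37 and 0.58 within the sets) and 0 of 15 were called by edgeR, while 1 higher and 2 lower had an unadjusted p under 0.05 and DESeq2 called 1 lower.

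**Figure D5:**
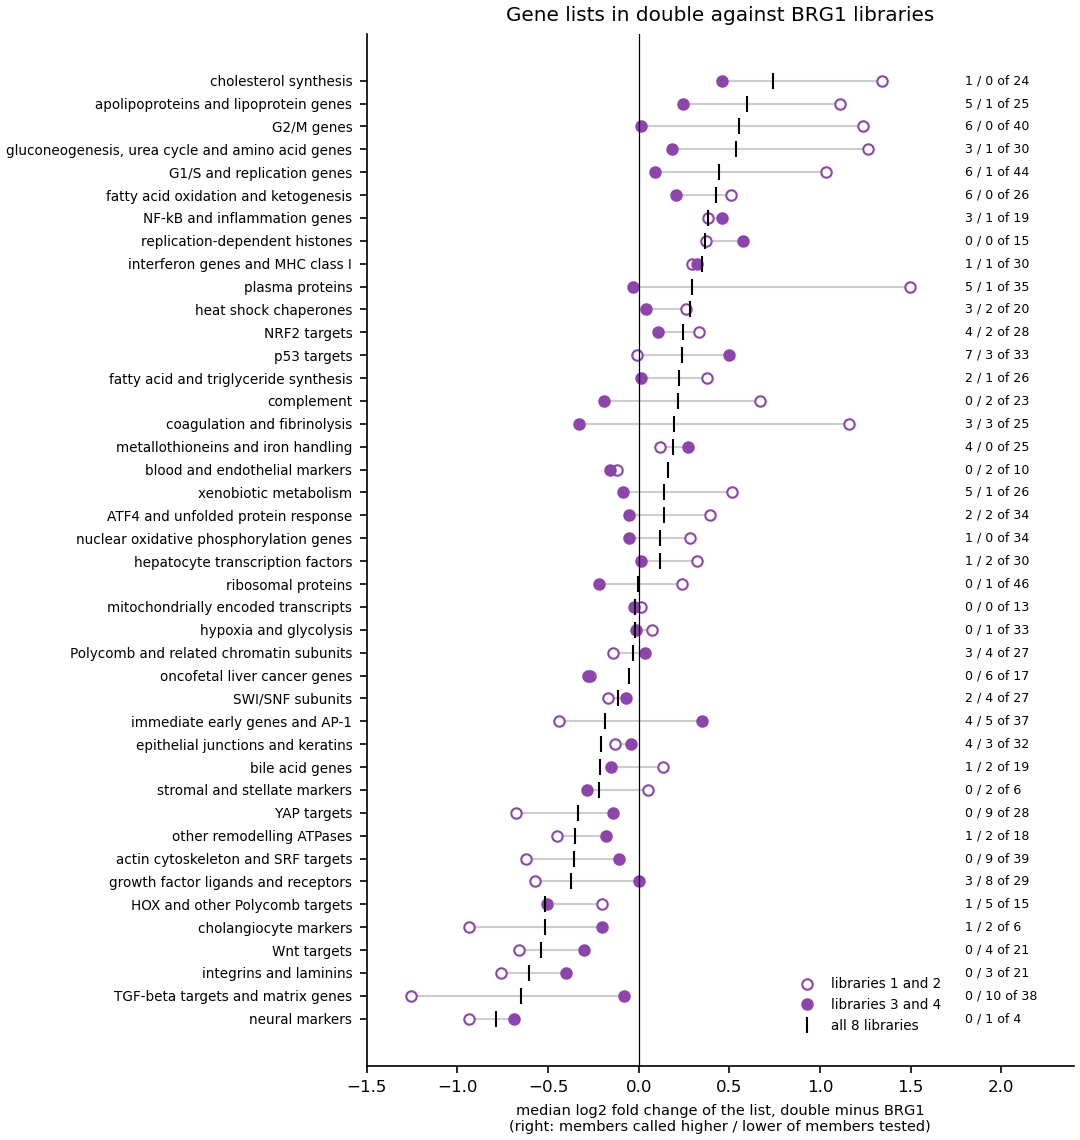
Median log2 fold change, double minus BRG1 (x axis), of each gene list over all 8 libraries (black tick), within libraries 1 and 2 (open point) and within libraries 3 and 4 (filled point), with the members called higher and lower of those tested at the right. Plasma proteins, G1/S and G2/M genes lie far from 0 in libraries 1 and 2 and near 0 in libraries 3 and 4, whereas integrins, neural markers and HOX genes lie below 0 in both.

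Stress programs moved in part. Of 33 p53 targets 7 rose (21.2%, against 4.1% of all genes) and 3 fell (9.09%, against 6.72%). Their median was 0.24 (−0.01 and 0.50 within the sets). BBC3, which encodes the cell death protein PUMA, had 34.1, 36, 50.8 and 42 CPM in the double libraries and 21.8, 20.5, 20.9 and 18.1 CPM in the BRG1 libraries. It rose by 1.0 ± 0.19 (edgeR adjusted p = 0.00404, 0.73 and 1.25 within the sets). TP53I3, a quinone reductase, rose by 0.86 ± 0.19 (edgeR adjusted p = 0.0101, 0.70 and 1.0 within the sets), and BTG1, an antiproliferative factor, fell by 0.77 ± 0.16 (edgeR adjusted p = 0.00679, −0.83 and −0.69 within the sets). HMOX1, heme oxygenase 1, had 409, 425, 958 and 775 CPM in the double libraries and 173, 154, 162 and 146 CPM in the BRG1 libraries. The groups did not overlap, double libraries 3 and 4 were the highest, and HMOX1 rose by 2.02 ± 0.29 (edgeR adjusted p = 0.000582, 1.35 and 2.49 within the sets), with a larger change in libraries 3 and 4 (adjusted p = 0.0481). HMOX1 was 1 of 4 NRF2 targets that rose of 28 (14.3%), beside AKR1C2, AKR1C3 and FTH1, the last of which has many processed copies, while ABCC2 and SRXN1 fell. The median of the NRF2 list was 0.25 (0.33 and 0.11 within the sets). Among 20 heat shock chaperones 3 rose (15%) and 2 fell (10.0%), with a median of 0.29 (0.26 and 0.04 within the sets). HSPA1A, the inducible HSP70, had 496, 579, 577 and 486 CPM in the double libraries and 132, 112, 174 and 168 CPM in the BRG1 libraries. It rose by 1.87 ± 0.18 (edgeR adjusted p = 8.31e-05, 2.14 and 1.63 within the sets), and its near-identical copy HSPA1B rose by 1.43 ± 0.15 (edgeR adjusted p = 0.000116, 1.62 and 1.26 within the sets). The split of reads between these copies is uncertain. HSPB1 rose (1.31) and the constitutive HSPA8 (−0.74) and HSPH1 (−0.62) fell. Of 34 targets of ATF4 and the unfolded protein response 2 rose, DDIT3 (1.28) and ATF4 (0.66), and 2 fell, SEL1L (−0.71) and ATF6 (−0.62), with a median of 0.14 (0.40 and −0.05 within the sets). Of 25 metallothionein and iron genes 4 rose (16.0%), led by SLC30A10, a manganese exporter (2.06 ± 0.37, edgeR adjusted p = 0.00276), with a median of 0.19 (0.12 and 0.27 within the sets).

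Of 19 NF-κB and inflammation genes tested, of 36 listed, 3 rose (15.8%, against 4.1% of all genes) and 1 fell (5.26%, against 6.72%). Their median was 0.38 (0.38 and 0.46 within the sets). BIRC3, an inhibitor of apoptosis that NF-κB induces, had 18, 18.8, 22.8 and 11.3 CPM in the double libraries and 4.81, 6.0, 3.13 and 2.75 CPM in the BRG1 libraries. Every double library was above every BRG1 library, and BIRC3 rose by 2.09 ± 0.34 (edgeR adjusted p = 0.00127, 1.77 and 2.54 within the sets). In cells with BRG1 its change was −1.15 ± 0.42 (adjusted p = 0.0807), and the difference between effects was 3.24 ± 0.54 (adjusted p = 0.0124). NFKBIA, the feedback inhibitor of NF-κB, had 199, 214, 219 and 176 CPM in the double libraries and 95.9, 91.6, 114 and 116 CPM in the BRG1 libraries. It rose by 0.95 ± 0.17 (edgeR adjusted p = 0.00204, 1.14 and 0.78 within the sets), and NFKBIE, a related inhibitor, rose by 0.98 ± 0.28 (edgeR adjusted p = 0.0365, 1.01 and 0.95 within the sets). CXCL8, the chemokine interleukin 8, fell by 2.63 ± 0.50 (edgeR adjusted p = 0.00387, −3.94 and −1.66 within the sets). The promoter of BIRC3 (chr11:102317234-102317533, plus strand, RefSeq GRCh38.p14) is shown because it holds 1 match to the NF-κB motif GGGANTTCC, in capitals, starting 199 bases before the start site. It was chosen after the matches were seen. The TFPI2 promoter shown above, of a gene that fell, also holds 1 match to this motif, starting 151 bases before its start site and not in capitals there.
BIRC3: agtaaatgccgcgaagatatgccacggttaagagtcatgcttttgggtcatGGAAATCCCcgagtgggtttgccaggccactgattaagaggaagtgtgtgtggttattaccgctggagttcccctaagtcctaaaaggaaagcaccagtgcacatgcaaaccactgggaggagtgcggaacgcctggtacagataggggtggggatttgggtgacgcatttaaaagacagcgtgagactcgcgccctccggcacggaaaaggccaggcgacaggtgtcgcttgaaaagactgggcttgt
This motif, read on both strands, occurs in 1.91% of all promoters of the table, and a match does not show binding. Of 30 interferon and MHC class I genes 1 rose, IFIT1 (2.12), and 1 fell, MX2 (−0.80), with a median of 0.35 (0.29 and 0.32 within the sets).

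Subunits of SWI/SNF other than the targeted genes were called in both directions. Of 25 tested without SMARCA4 and SMARCA2, 1 rose (4%, against 4.1% of all genes) and 3 fell (12%, against 6.72%), and the median over all 27 was −0.11 (−0.17 and −0.07 within the sets). Within libraries 1 and 2, 9 of these 27 fell and 4 rose, targeted genes included (15.6% and 13.5% of all genes). Within libraries 3 and 4, 3 fell and 2 rose (7.51% and 5.88% of all genes). Of the 25, those that fell over all 8 libraries were DPF3 (−1.52), SMARCD1 (−1.25 ± 0.33, edgeR adjusted p = 0.0262) and ARID1B, and PHF10 rose (0.94). ARID1B, a DNA-binding subunit, had 69.2, 66.7, 58.5 and 73.2 CPM in the double libraries and 109.9, 126, 104 and 97.9 CPM in the BRG1 libraries. It fell by 0.71 ± 0.15 (edgeR adjusted p = 0.00602, −0.79 and −0.62 within the sets). Among 18 other remodelling ATPases SMARCA1, of the ISWI family, rose (0.63 ± 0.16, edgeR adjusted p = 0.0234) and its paralog SMARCA5 (−0.63 ± 0.17, edgeR adjusted p = 0.0247) and CHD6 (−0.71) fell, with a median of −0.35 (−0.45 and −0.18 within the sets). Of 27 Polycomb and related subunits 3 rose (11.1%), among them PCGF5 (0.80) and EED (0.54), and 4 fell (14.8%), with a median of −0.03 (−0.14 and 0.03 within the sets). PHC1, of the canonical PRC1 complex, had 13.3, 11.5, 15 and 13.1 CPM in the double libraries and 38.1, 44.6, 37.5 and 35.5 CPM in the BRG1 libraries. It fell by 1.55 ± 0.20 (edgeR adjusted p = 0.000267, −1.73 and −1.37 within the sets). Of 42 HOX genes and other Polycomb targets 15 passed the filter on low counts, with a median of −0.52 (−0.20 and −0.51 within the sets). Of these 5 fell (33.3%, against 6.72% of all genes). Only 1 rose (6.67%, against 4.1%), GATA2 (0.89 ± 0.15, edgeR adjusted p = 0.00198). Those that fell included HOXA7 (−3.19), PAX6 (−2.84) and the cell cycle inhibitors CDKN2A (−1.29) and CDKN2B (−1.17).

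Oncofetal genes, which are active in fetal liver and again in liver cancer, fell in part, 6 of 17 (35.3%, against 6.72% of all genes). Of them 0 rose, against 4.1% of all genes (0 by DESeq2, 1 at an unadjusted p under 0.05). The list median was −0.05 (−0.27 and −0.28 within the sets). IGF2BP1, an RNA-binding protein, had 413, 366, 469 and 461 CPM in the double libraries and 938, 979.7, 833 and 936 CPM in the BRG1 libraries. The groups did not overlap and IGF2BP1 fell by 1.11 ± 0.16 (edgeR adjusted p = 0.000582, −1.3 and −0.93 within the sets). The surface proteins PROM1 (−2.51 ± 0.34, edgeR adjusted p = 0.000402) and CD24 (−1.9 ± 0.39, edgeR adjusted p = 0.0065) and the chromatin protein HMGA2 (−0.67 ± 0.14, edgeR adjusted p = 0.00646) fell too, while AFP (0.14) and GPC3 (0.20) did not pass. Of 32 epithelial junction and keratin genes 4 rose (12.5%) and 3 fell (9.38%), with a median of −0.21 (−0.13 and −0.04 within the sets). CDH1, which encodes E-cadherin, had 52.9, 49.2, 17.9 and 46 CPM in the double libraries and 9.63, 9.93, 6.57 and 7.47 CPM in the BRG1 libraries. Every double library exceeded every BRG1 library, double library 3 least, and CDH1 rose by 2.3 ± 0.37 (edgeR adjusted p = 0.00119, 2.38 and 2.18 within the sets). CGN, which encodes the tight junction protein cingulin, rose by 1.43 ± 0.25 (edgeR adjusted p = 0.00204, 1.58 and 1.26 within the sets), and the keratins KRT7, KRT23 and KRT80 fell, with −2.02 ± 0.21 (edgeR adjusted p = 0.000116) for KRT23. Of 33 hypoxia and glycolysis genes 1 was called, PFKP (−1.16), with a median of −0.02 (0.07 and −0.01 within the sets), and of 34 nuclear genes of oxidative phosphorylation 1, SDHB (0.80), with a median of 0.12 (0.28 and −0.05 within the sets). None of the 13 mitochondrially encoded transcripts was called by edgeR or DESeq2 or had an unadjusted p under 0.05, with a median of −0.02 (0.01 and −0.03 within the sets) (range of log2 fold changes −0.22 to 0.22). Of 46 ribosomal protein genes, with a median of 0.00 (0.24 and −0.22 within the sets), RPL14 alone was called, with 209, 239, 149 and 189 CPM in the double libraries and 553, 427, 567 and 442 CPM in the BRG1 libraries and a log2 fold change of −1.34 ± 0.19 (edgeR adjusted p = 0.000482, −1.13 and −1.58 within the sets). It has processed pseudogenes that can share its reads.

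Markers of other cell types were summed in each library. The sums of stromal and of blood and endothelial markers did not overlap and were lower in the double libraries, whereas those of cholangiocyte and neural markers overlapped. Of all single genes tested, 18.8% did not overlap, 6.72% were called lower and 4.1% higher. The summed level of 12 cholangiocyte markers ran from 1663 to 3294 CPM in the double group and 3086 to 5346 CPM in the BRG1 group, 80.8% of it KRT19. Of the 6 tested ANXA4 rose (1.06) and SOX9 (−0.76) and KRT7 (−3.52) fell. Stromal markers summed to 126 to 197 CPM in the double group and 286 to 414 CPM in the BRG1 group, and of 6 tested COL1A1 and RELN (−1.74) fell. Blood and endothelial markers summed to 365 to 464 CPM in the double group and 734 to 1443 CPM in the BRG1 group, 88.0% of it LYZ, with CD3E and HBB at 0 in all 8 libraries, and of 10 tested LYZ (−1.66) and PECAM1 (−0.79) fell. Neural markers summed to 315 to 693 CPM in the double group and 654 to 1021 CPM in the BRG1 group, 97.3% of it TUBB3, with STMN2, NEFL, NEFM and ELAVL4 at 0, and of 4 tested GAP43 fell (−3.02). The list medians were −0.52 (−0.94 and −0.21 within the sets), −0.22 (0.05 and −0.29 within the sets), 0.16 (−0.12 and −0.16 within the sets) and −0.79 (−0.94 and −0.69 within the sets), in the same order. The cholangiocyte, blood and endothelial, and neural sums were mainly those of KRT19, LYZ and TUBB3, and say little of the other markers. A relation of the sums to the decreases of matrix and surface genes above was not tested. All libraries are from the HepG2 line, and in bulk RNA fewer cells with a transcript and less of it per cell cannot be told apart.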

How the data were processed

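RNA from HepG2 cells was sequenced as poly(A)-selected libraries in 4 groups: double (n = 4), BRG1 (n = 4), BRM (n = 3) and NS (n = 4). The deposited values are estimated counts per gene in whole numbers, made by the authors with kallisto on GRCh38, per the submitters' processing notes, which also name DESeq2. Versions, annotation and use of strand were not given in the sources used here. The authors' own comparison tables were not used, and 0 value columns were left unmapped.

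The table holds 35012 genes, of which 33662 matched GENCODE release 29 by name for coordinates. After edgeR's filterByExpr, 14621 genes were tested with edgeR 4.0.16 (R 4.3.3; TMM factors, robust quasi-likelihood F test, group means, all 15 libraries in 1 fit, two-sided), and p-values were adjusted by Benjamini-Hochberg over all of them, with calls under 0.05. Errors after log2 fold changes are standard errors, the absolute log2 fold change divided by the square root of F. Totals of 11500149 to 27187991 counts per library set the precision of low genes. Values within sets came from a fit of group by set means. Exact intervals (95%) cover counting error only. DESeq2 1.42.0, limma 3.58.1 (voom), other scalings, no filter, a set term, the replicate number as a block and leaving out each library were alternatives.

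The comparison and the 42 gene lists (1235 entries, 4 not matched to the table) were chosen with earlier results of these data known. Genes named were SMARCA4 and SMARCA2, the 12 largest increases and decreases by log2 fold change among called, non-overlapping genes of at least 2 CPM on average, up to 4 called members of each list by p, the 5 largest differences of the BRM effect in each direction, and the leading genes called in both comparisons or in opposite directions; other genes were named after their values were seen. Of the 160 genes named by rule, 98 overlap another annotated gene, whose reads cannot be told apart without strand. Some genes that the rule names are not reported here. Promoters of 300 bases came from RefSeq.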

Additional observations from a re-analysis of the deposited data

Results flagged for a closer look

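In 20 of the 312 groups of 4 libraries examined (6.41%), 1 library lay far from the other 3, with a gap above Dixon's critical value at the 95% level. For 4 values from 1 normal distribution chance gives such a library in about 1 in 20 groups. The CPM values were not log-transformed and the libraries fall into sets, so 6.41% cannot be judged against that rate. Double library 4 stood apart for NPTX1 (4.12 CPM), DACT2 (12.7 CPM), GSTA1 (21.9 CPM), PROX1 (47.0 CPM) and ANGPTL4 (83.6 CPM). Double library 3 stood apart for NTNG1 (0.492 CPM), CD59 (208 CPM), BHMT (1.62 CPM), BTG2 (109 CPM), TP53I3 (213 CPM), MYC (153 CPM) and CGN (9.83 CPM). Double library 1 was the one with a count for SLCO1B3 (0.0547 CPM). BRG1 library 1 stood apart for ACTA1 (3.91 CPM), SMARCA1 (165 CPM), NT5E (38.5 CPM) and FLNC (1.07 CPM), BRG1 library 2 for FHL2 (44.6 CPM) and LGR5 (41.8 CPM), and BRG1 library 4 for SMARCA4 (24.4 CPM).

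For 17 named genes the effect of BRM depletion differed between BRG1-depleted cells and cells with BRG1 by the test of the difference itself (edgeR). The log2 difference was positive for SMPDL3B (3.75), CRABP2 (3.36), PLA2G2A (3.28), BIRC3 (3.24) and LPAR6 (2.51). It was negative for MSN (−4.78), PTGES (−4.73), EGFR (−3.33), ITGB3 (−3.30), FETUB (−3.28), CYP19A1 (−2.80), CD22 (−2.77), MASP1 (−2.57), NAGS (−2.44), ACSL1 (−2.16), SLC25A20 (−1.76) and NT5E (−1.73).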

How the results depend on the processing

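The count for double against BRG1 (1582) was 3259 with the replicate number as a block, 3728 with a term for the sets, 4249 within libraries 1 and 2, 922 with a log2 fold change of at least 1 as well, and 934 to 1397 when 1 library was left out. For BRM against NS (2035) the count was 1002 with the libraries of these groups alone in the fit, 4153 with the block, 4684 with the set term, 4336 and 3349 within the sets, 1186 with a log2 fold change of at least 1, and 959 to 2063 when 1 library was left out. Within libraries 3 and 4 the BRM group is 1 library, assumed to vary like the other groups, so that 3349 and the 530 below rest on it. The difference of the BRM effect (73) gave 633 genes with the block, 1061 with the set term, 1938 and 530 within the sets, 453 by DESeq2, and 38 to 166 when 1 library was left out. Members of the gene lists called (186) numbered 361 with the block, 408 with the set term, 548 within libraries 1 and 2, and 114 to 192 when 1 library was left out, with 123 and 121 without BRG1 library 1 or 2 and 116 and 114 without double library 1 or 2. Under the remaining alternatives these counts stayed within 1.5 times, for double against BRG1 between 1179 without the filter and 2307 by DESeq2. Why these counts moved was not tested.

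Same-numbered double and BRG1 libraries deviated together with correlations of 0.445, 0.353, 0.058 and 0.659, so the numbers were not taken to pair the libraries. A double library correlated best with the BRG1 library of its own number in 2 of 4 cases and a BRG1 library with its own double library in 1 of 4. SMARCA4 and SMARCA2 kept their direction and call in every alternative run. Of 154 named genes, 99 kept both in every alternative and 0 changed direction. The call was lost by 39 when at least 1 library was left out, by 36 within libraries 3 and 4, and by 21 without the filter. All 154 had been called over the same libraries, a choice that favours a stable direction. Depth limits genes near 0 in the double group, such as SLCO1B3.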
